A study of Homo sapiens with 4 samples.

Results

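The 10 genes described here encode the core of the junctions that hold epithelial cells together: E‐cadherin and its catenins (CDH1, CTNNB1, CTNNA1, CTNND1, JUP) and the cadherins and plaque proteins of desmosomes (DSG2, DSC2, DSP, PKP2, PKP3, with JUP shared). They were chosen by name, and every probe set of the U133 Plus 2.0 array whose platform gene symbol is one of them was taken, 26 probe sets in all. Of these, 22 were among the kept probe sets, the brightest ones of the array up to the number that the study counted as detected. Over the whole table, the kept probe sets with 1 gene symbol stand for 10505 genes. RCM‐1 cells are an established human line from a well‐differentiated rectal cancer. The cells had been exposed to 1 mM methylthioacetic acid (MTA), a sulphur compound that makes them form domes, for 0, 6, 12 or 18 h, and each duration has 1 array. After treatment, cells were moved to medium with only the vehicle (0.1% acetonitrile) and cultured for up to 24 h after MTA was added, so those treated for 6, 12 and 18 h had up to 18, 12 and 6 h without MTA. The 0 h array is labelled control, and whether its cells were also cultured to 24 h is not stated outright. In every ratio treatment and added culture time therefore cannot be told apart. Among the MTA arrays a longer treatment went with a shorter time without MTA, and these cannot be told apart either.

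Adherens junctions and desmosomes share a common plan. Cadherins cross the membrane and bind cadherins of the next cell in the presence of calcium, and proteins with armadillo repeats bind their tails inside the cell. In adherens junctions beta‐catenin and alpha‐catenin link E‐cadherin to actin filaments, and in desmosomes plakoglobin, plakophilins and desmoplakin link desmosomal cadherins to keratin filaments. In the intestinal epithelium both junctions give the cell sheet its mechanical strength, and beta‐catenin is in addition the effector of Wnt signalling.

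All values are MAS5 signals on a linear scale as the authors deposited them, and each log2 ratio sets an MTA array against the 0 h array. With 1 array per time no test could be made, and the ratios at 6, 12 and 18 h share the same 0 h array. The median ratio over all 10505 genes was 0.11, −0.28 and −0.47 in time order, so each gene is also set against it, and the order of arrays given for a gene holds for the deposited scaling. The only error that can be given is the difference between the ratios of a gene's 2 brightest kept probe sets, with an SD of 0.408, 0.421 and 0.479 on the log2 scale at 6, 12 and 18 h over 4676 genes. For 1776 genes with both mean signals at 200 or more, the SD was 0.255, 0.269 and 0.310. Variation between cultures is not covered. In these cells all 9 listed markers of colon epithelium were among the kept genes, with a summed signal from 38780 at 18 h to 55774 at 0 h. Of these markers CDX2 and GPA33 were dim, at 54.9 to 70.3 and 53.5 to 78.9. No fibroblast marker (of 5) or leukocyte marker (of 3 with a probe set) was kept, and of 3 endothelial markers only PECAM1 was, at 28.6 to 53.0. The summed signals ran from 32.9 to 51.7 for fibroblasts, from 29.6 to 38.5 for leukocytes and from 36.0 to 63.0 for endothelium.

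By the brightest probe set of each gene, PKP3 and DSC2 had the lowest ratios of the 10 on each MTA array. PKP3, a plakophilin of the desmosome plaque, had a log2 ratio of −1.54 at 18 h, and DSC2, a desmosomal cadherin, had −1.17. On the same basis the remaining 8 genes had ratios between −0.59 and −0.09 at 18 h. Other probe sets narrow this gap for CTNND1, whose 4 kept probe sets had a mean of −0.79 at 18 h, against −0.90 over the 4 of DSC2.

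**Figure D1:**
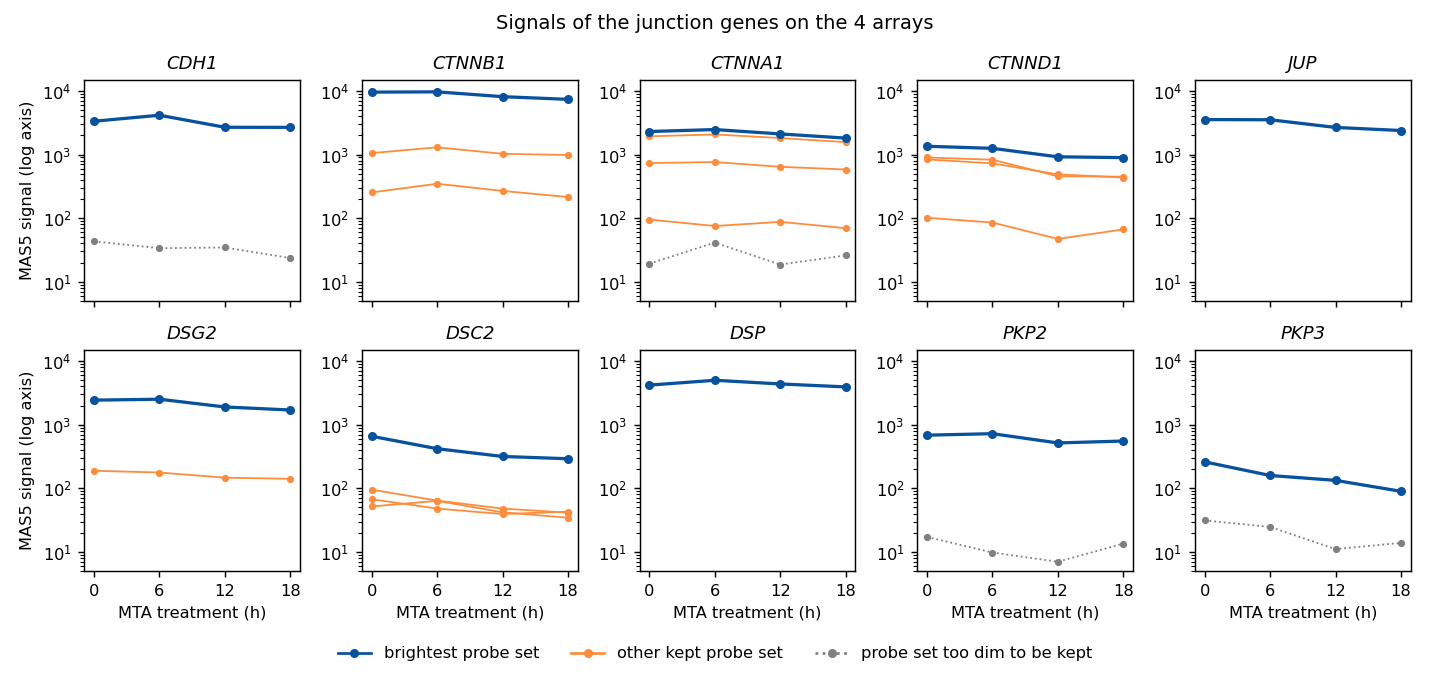
MAS5 signal (log axis) of each junction gene against hours of MTA treatment, with a line for each probe set and a point for each array. The lines of PKP3 and DSC2 slope down from 0 h on their brightest probe sets, from 260.0 to 89.6 and from 656.8 to 291.1, and a pair of CTNND1 lines ends at 49.9% and 52.0% of 0 h.

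CDH1, which encodes E‐cadherin, the cadherin of adherens junctions, had signals of 3338, 4148, 2682 and 2674 at 0, 6, 12 and 18 h. The 6 h array was highest and the 12 and 18 h arrays were level with each other. The log2 ratios were 0.31, −0.32 and −0.32, which lay 0.20 above, −0.04 from and 0.15 above the median of all genes. The other CDH1 probe set was too dim to be kept, with signals of 43.0, 33.7, 34.6 and 23.5 and a ratio of −0.87 at 18 h. Its mean signal of 32.9 was just short of the lowest mean signal kept, 34.0.

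DSG2, the desmoglein of simple epithelia, had signals of 2429, 2512, 1897 and 1700 at 0, 6, 12 and 18 h. The ratios of 0.05, −0.36 and −0.52 each lay within 0.08 of the median of all genes. A dimmer probe set had 188.3, 176.8, 146.7 and 140.6, with −0.42 at 18 h.

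DSC2, the desmocollin that pairs with DSG2 in simple epithelia, had signals of 656.8, 418.4, 316.2 and 291.1 at 0, 6, 12 and 18 h. Each array was lower than the one with a shorter treatment. The log2 ratios were −0.65, −1.05 and −1.17, and at 18 h 44.3% of the 0 h signal was left. Relative to the median of all genes the ratios of this probe set were −0.76, −0.77 and −0.71, more than the spread between probe sets at each time. Lower ratios at 6, 12 and 18 h were found in 2.66%, 5.16% and 9.25% of the kept probe sets. The other 3 kept probe sets of DSC2 were dimmer, between 34.4 and 95.1 on every array, and had −1.20, −0.65 and −0.59 at 18 h. These ratios lay −0.73, −0.18 and −0.12 from the median of all genes, and −0.18 and −0.12 were less than the spread. At 6 h the 3 dimmer probe sets had −0.57, −0.49 and 0.29, so 1 of them was higher than at 0 h there.

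DSC2 and DSG2 belong to a row of desmosomal cadherin genes on chromosome 18. From DSC2 to DSG2 the order in the RefSeq annotation is DSC2, DSC1, DSG1, DSG4, DSG3 and DSG2. Genes beyond this stretch were not listed. The start regions of both are shown because the 2 cadherins had different ratios from 1 gene cluster on their brightest probe sets. At 18 h these were −1.17 for DSC2 and −0.52 for DSG2. The dimmer kept probe sets were less far apart, with −1.20, −0.65 and −0.59 for DSC2 and −0.42 for DSG2. The start region of DSP is also shown, the junction gene with the highest ratios at 12 and 18 h by brightest probe sets. Each window runs from 250 bases before to 50 bases after an annotated start site, 5′ to 3′ on the gene's strand, from RefSeq (GRCh38.p14), and DSC2 has 2 such windows. Capitals mark CACCTG or its complement CAGGTG, the E‐box that the repressors Snail and ZEB recognise, searched on both strands.
DSC2 (chr18:31102372-31102671, minus strand): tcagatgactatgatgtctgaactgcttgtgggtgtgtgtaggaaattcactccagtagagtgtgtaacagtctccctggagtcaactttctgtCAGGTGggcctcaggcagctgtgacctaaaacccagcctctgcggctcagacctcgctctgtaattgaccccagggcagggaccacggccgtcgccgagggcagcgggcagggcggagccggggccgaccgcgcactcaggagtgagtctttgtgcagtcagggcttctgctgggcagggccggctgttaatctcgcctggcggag
DSC2 (chr18:31101211-31101510, minus strand): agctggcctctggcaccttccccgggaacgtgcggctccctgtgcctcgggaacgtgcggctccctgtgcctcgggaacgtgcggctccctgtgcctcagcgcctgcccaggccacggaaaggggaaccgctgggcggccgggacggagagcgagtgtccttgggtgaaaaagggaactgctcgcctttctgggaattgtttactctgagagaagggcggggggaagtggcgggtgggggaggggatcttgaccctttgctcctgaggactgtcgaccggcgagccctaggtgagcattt
DSG2 (chr18:31497927-31498226, plus strand): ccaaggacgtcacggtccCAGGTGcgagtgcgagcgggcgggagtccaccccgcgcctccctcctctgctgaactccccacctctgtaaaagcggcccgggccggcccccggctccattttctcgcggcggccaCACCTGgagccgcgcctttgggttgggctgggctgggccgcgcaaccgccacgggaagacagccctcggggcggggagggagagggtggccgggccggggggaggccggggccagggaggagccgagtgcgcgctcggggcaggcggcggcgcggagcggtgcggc
DSP (chr6:7541421-7541720, plus strand): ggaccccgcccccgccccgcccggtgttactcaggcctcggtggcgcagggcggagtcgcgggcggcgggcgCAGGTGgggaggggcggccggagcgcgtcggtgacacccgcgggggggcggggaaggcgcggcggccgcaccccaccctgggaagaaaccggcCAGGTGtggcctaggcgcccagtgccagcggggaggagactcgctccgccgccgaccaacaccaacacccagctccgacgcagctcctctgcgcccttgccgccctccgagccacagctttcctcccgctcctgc

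The upstream DSC2 window held 1 such E‐box, its first base at −156 from the start site, and the downstream one held none. The DSG2 window held 2, at −232 and −116, and the DSP window 2, at −178 and −85. Of the 6 junction genes with a window (11 windows in all), CTNNA1 and CTNNB1 had no match and JUP had 2, at −54 and −43 in 1 of its 2 windows. The motif is in 20.6% of all 35116 windows of this length and occurs 2 or more times in 3.49%. A match is a description of the letters and not of binding, and its relation to the ratios was not tested. Windows of CDH1, CTNND1, PKP2 and PKP3 were not analysed here.

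CTNNB1, which encodes beta‐catenin, had the brightest probe set of all the junction genes. Its signals were 9573, 9676, 8126 and 7373 at 0, 6, 12 and 18 h. The 0 and 6 h arrays were level and the 18 h array was lowest, with ratios of 0.02, −0.24 and −0.38. Its other 2 probe sets had −0.10 and −0.24 at 18 h. All 3 lay above the median of all genes at 12 and 18 h.

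CTNNA1, which encodes the alpha‐catenin that ties the complex to actin, had signals of 2300, 2471, 2109 and 1813. The ratios were 0.10, −0.13 and −0.34. On the 4 kept probe sets the ratio at 18 h ranged only from −0.45 to −0.30, the closest set of readings for any of these genes with 4 kept probe sets. A dim probe set that was not kept had signals between 18.6 and 41.2 and a ratio of 0.43 at 18 h.

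CTNND1, which encodes the catenin that binds E‐cadherin near the membrane and keeps it at the cell surface, has no probe set of its own here. All 4 of its probe sets also carry the symbol of TMX2‐CTNND1, a read‐through transcript of CTNND1 and its neighbour TMX2, and the pair cannot be told apart, so these probe sets are left out of the counts below unless stated. The brightest had signals of 1350, 1250, 920.4 and 894.2, with ratios of −0.11, −0.55 and −0.59. The next 2 had 898.6, 828.7, 455.5 and 448.3, and 837.5, 726.0, 487.4 and 435.1. On these the 12 and 18 h signals lay well below those at 0 and 6 h, and at 18 h 49.9% and 52.0% of the 0 h signal was left. Relative to the median of all genes their ratios at 18 h were −0.54 and −0.48. The dimmest had −1.11 at 12 h, below the brightest probe sets of DSC2 and PKP3 there, and −0.61 at 18 h. All 4 were below the median of all genes at each time.

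JUP, which encodes plakoglobin, a close relative of beta‐catenin found in both junctions, has 1 probe set. Its signals were 3548, 3520, 2668 and 2386, level at 0 and 6 h and lower at 12 and 18 h, with ratios of −0.01, −0.41 and −0.57. They lay −0.12, −0.13 and −0.11 from the median of all genes, less than the spread between probe sets.

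DSP, which encodes desmoplakin, the plakin that anchors keratin filaments to the desmosome, had signals of 4185, 4989, 4366 and 3924. The 6 h array was highest and the 18 h array, at 93.8% of 0 h, was lowest. Its ratios of 0.25, 0.06 and −0.09 lay 0.14, 0.34 and 0.37 above the median of all genes, and at 18 h 73.7% of the kept probe sets had a lower ratio. DSP has 1 probe set, so no second reading is at hand.

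PKP2, a plakophilin of the desmosomes of simple epithelia and heart, had signals of 683.1, 721.6, 515.7 and 552.7. The 12 h array was lowest, which no other of these genes shared on its brightest probe set. The ratios were 0.08, −0.41 and −0.31. The dim probe set of PKP2, between 6.99 and 17.2, was not kept.

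PKP3, a plakophilin found in the desmosomes of most epithelia, had signals of 260.0, 158.7, 133.1 and 89.6 at 0, 6, 12 and 18 h. Each array was lower than the one with a shorter treatment, and at 18 h 34.4% of the 0 h signal was left. The log2 ratios were −0.71, −0.97 and −1.54, and relative to the median of all genes −0.82, −0.69 and −1.07, each more than the spread between probe sets. Of the kept probe sets 1.98%, 7.47% and 2.76% had a lower ratio at 6, 12 and 18 h. A second probe set, too dim to be kept, had 31.2, 24.7, 11.05 and 13.8, with ratios of −0.34, −1.50 and −1.17.

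**Figure D2:**
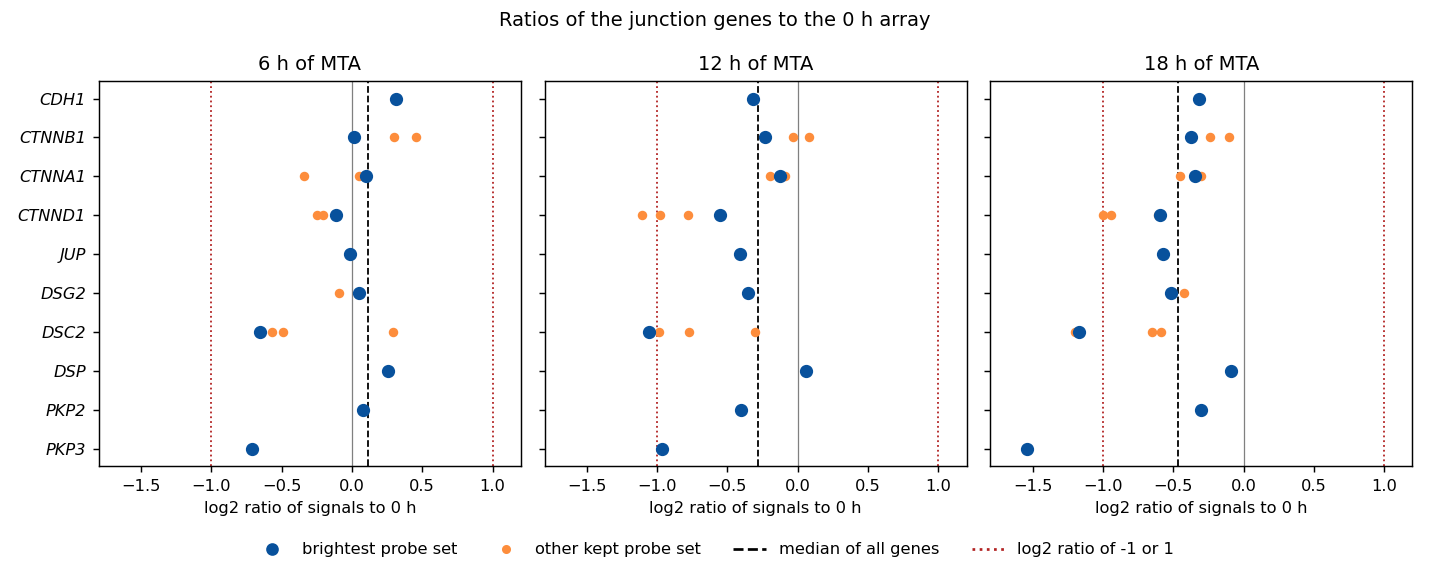
Log2 ratio of signals to 0 h after 6, 12 and 18 h of MTA, with a large point for the brightest probe set of each gene and small points for other kept ones. PKP3 and DSC2 lie furthest left at each time among the large points, the dashed median of all genes moves from 0.11 to −0.47, and a small point of CTNND1 lies at −1.11 at 12 h.

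The counts of junction genes with a large ratio were set against those of the whole array. Calls here are log2 ratios beyond 1 in either direction, or a factor of 2, on the brightest kept probe set. Of the 9 genes with a probe set of their own, none was below −1 at 6 h, against 0.476% of all genes, 1 (DSC2) at 12 h, against 6.29%, and 2 (DSC2 and PKP3) at 18 h, against 15.8%. None was above 1 at 6, 12 or 18 h, against 4.68%, 3.28% and 3.15% of all genes. Beyond the study's threshold of 1.5 at 18 h, PKP3 alone was lower, against 3.19% of all genes, and none was higher, against 1.22%. A share of 2 in 9 is close to the background at 18 h and is no result about the junction genes as a set. With CTNND1 the counts were the same over 10 genes.

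The median ratio of the 9 genes was 0.05, −0.36 and −0.38 at 6, 12 and 18 h. Those of all genes were 0.11, −0.28 and −0.47, and with CTNND1 the junction genes had 0.03, −0.38 and −0.45. At 18 h 5 of the 9 genes lay above the median of all genes (CDH1, CTNNB1, CTNNA1, DSP and PKP2) and 4 below it. Brightness differs among them. PKP3 was the only one of the 9 with a mean signal under 200, a class in which 13.2% of genes were below −1 at 18 h. DSC2 and PKP2 lay between 200 and 1000, where the share was 18.7%, and the other 6 at 1000 or more, where it was 15.4%.

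**Figure D3:**
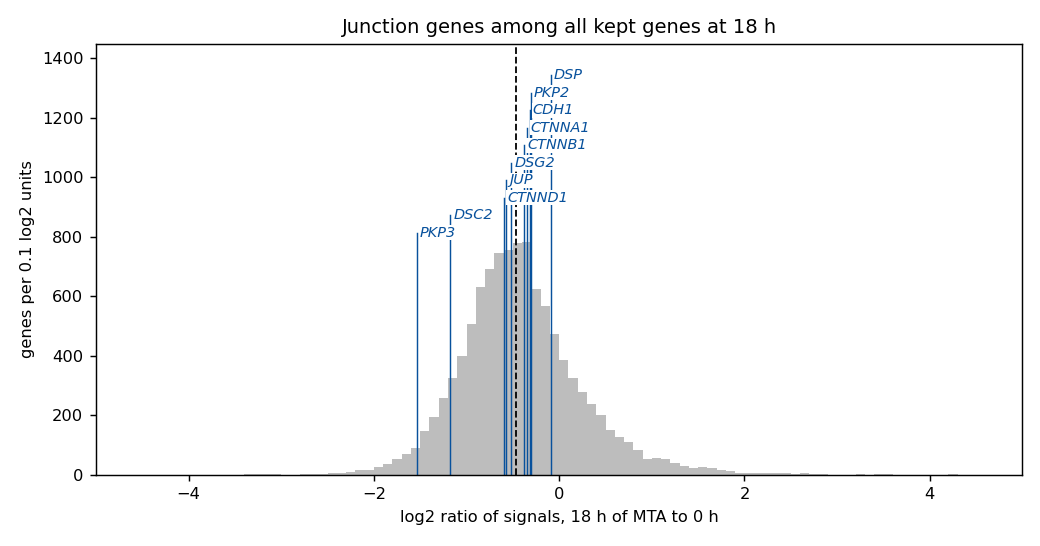
Histogram of the log2 ratio at 18 h of MTA to 0 h over all kept genes in steps of 0.1, with a vertical line for each junction gene (the brightest probe set, CTNND1 included) while the dashed line marks the median over the histogram, −0.47. PKP3 at −1.54 and DSC2 at −1.17 lie in the left flank, and the other 8 lines fall within the central peak between −0.59 and −0.09.

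The sign of most of these ratios depended on how the arrays were scaled, whereas that of PKP3, DSC2 and JUP did not. Over 6 scalings, the deposited one included, the ratio of PKP3 at 18 h ranged from −1.54 to −1.09, that of DSC2 from −1.17 to −0.60 and that of JUP from −0.57 to −0.03. CTNND1 and DSG2 were negative under 5 of the 6, from −0.59 to 0.01 and from −0.52 to 0.09. CDH1 ranged from −0.32 to 0.22, CTNNB1 from −0.38 to 0.07, CTNNA1 from −0.34 to 0.25 and PKP2 from −0.31 to 0.28, each negative under 4. DSP ranged from −0.09 to 0.44 and was negative under 3. At 6 h, DSC2 stayed between −0.97 and −0.65 and PKP3 between −1.03 and −0.71.

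**Figure D4:**
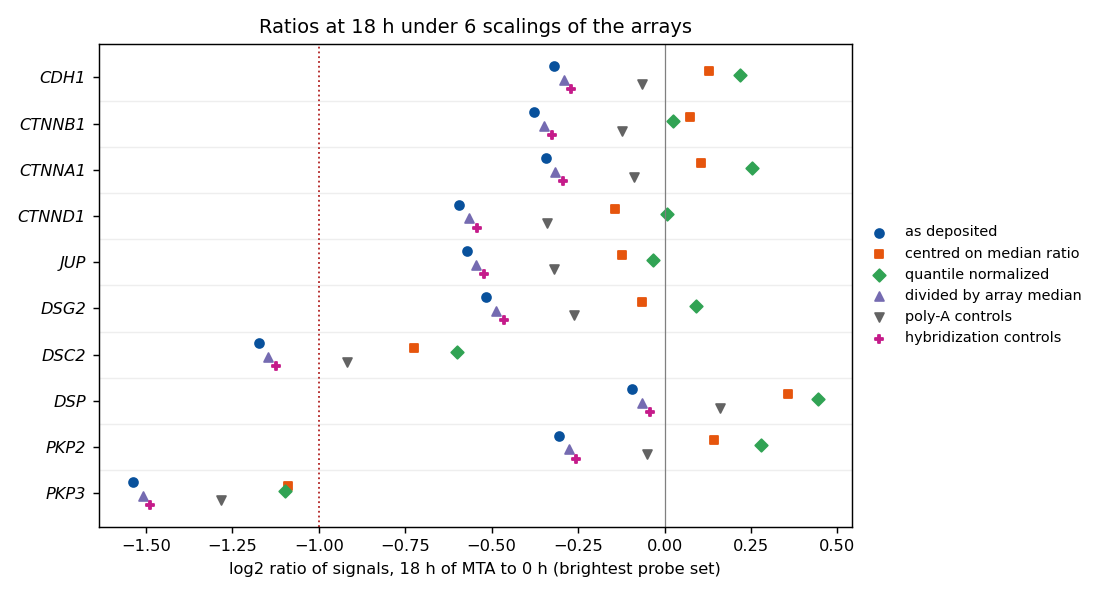
Log2 ratio at 18 h of MTA to 0 h of the brightest probe set of each junction gene under 6 scalings of the arrays, a symbol for each. PKP3 stays left of the dotted line at −1 under all 6, DSC2 lies between −1.17 and −0.60, and 7 of the other 8 genes have symbols on both sides of 0, JUP being the exception.

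The likeness of the genes was described by the 3 ratios of their brightest probe sets. Likeness was measured as the Euclidean distance between the log2 ratios at 6, 12 and 18 h, over 4 arrays. The closest of the 45 pairs was JUP with DSG2, at 0.0996, followed by CTNNB1 with CTNNA1 at 0.145. Among the 8 genes other than PKP3 and DSC2 the distances ran from 0.0996 to 0.872, with a median of 0.323. PKP3 and DSC2 were 0.379 apart, and from the other 8 they were between 0.938 and 2.02. This pair was picked for its lowest ratios at 18 h, which enter the distance. Its distance from the other 8 is therefore no separate result. For CDH1, the 5 nearest of 10504 other genes were SLC25A43, VPS13B, TVP23B, MAL2 and SMAD5, at distances from 0.0239 to 0.0548, but 350 genes (3.33%) were within 0.2, so many genes share this pattern.

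Other genes of the same junctions were taken from textbook lists. Of 19 further adherens junction genes 15 were measured, with a median of −0.35 at 18 h. At that time 1 was below −1, against 15.8% of all genes, and 1 above 1, against 3.15%. At 6 h 2 were above 1 (NECTIN1 at 1.19 and NECTIN3 at 1.23), against 4.68%, and at 12 h 2 (CDH3 at 1.07 and NECTIN3 at 1.05), against 3.28%. These counts use the brightest probe sets, and other kept ones differed at 18 h, down to −1.44 for AJUBA and up to 1.72 for NECTIN3. VCL, the actin linker vinculin, had signals of 2227, 2510, 1529 and 1075 and a ratio of −1.05, and ACTN4, an actin crosslinker, had −0.92. CDH3, which encodes P‐cadherin, a further classical cadherin, had signals of 152.8, 280.6, 320.4 and 286.9, higher on all 3 MTA arrays, and a ratio of 0.91 at 18 h. NECTIN3, an adhesion receptor, had 26.9, 63.0, 55.7 and 63.2, and its ratio of 1.23 at 18 h starts from a 0 h signal below the lowest mean kept. CDH17, the cadherin of intestinal epithelium that binds no catenins, had 3016, 3098, 2428 and 1774, with −0.77 at 18 h.

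Of 9 further desmosome genes only 3 were measured: EVPL and PPL, plakins that strengthen the plaque, at −0.70 and 0.36, and PERP, a membrane protein of desmosomes, at −0.46. PPL had signals of 593.4, 788.5, 849.3 and 760.6, higher on each MTA array, and PERP had 11128, 9803, 8676 and 8066. DSG1, DSG3, DSG4, DSC1, DSC3 and PKP1, which belong mainly to stratified epithelia, were too dim to be kept, with no signal above 44.1.

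The transcription factors that repress E‐cadherin were below the filter as well. SNAI1 had signals of 37.5, 35.1, 19.1 and 20.8, ZEB1 15.8, 23.8, 24.8 and 12.3, and SNAI2, ZEB2 and TWIST1 were between 0.399 and 16.4. CDH2, the cadherin of mesenchymal cells, had 14.8, 7.73, 7.29 and 18.4, and VIM, their intermediate filament, had 31.1, 15.2, 22.2 and 6.62. These signals are near or below the lowest mean kept, and no ratio is given for them. Of the 12 genes in this list 4 were measured, with a median of −0.27 at 18 h and none beyond 1. GRHL2, an epithelial factor that activates CDH1, had −0.40, OVOL1, a repressor of mesenchymal genes, −0.73, CBLL1, a ubiquitin ligase of E‐cadherin, −0.14, and ADAM10, the protease that sheds E‐cadherin, −0.01.

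Genes that turn over beta‐catenin and the keratins that desmosomes anchor had no ratio beyond 1 at 18 h on their brightest probe sets. AXIN1, a scaffold of the destruction complex, had −0.69, the kinases CSNK1A1 and GSK3B had −0.41 and −0.15, and BTRC, the ubiquitin ligase subunit, had −0.32. Other kept probe sets differed, down to −1.01 for BTRC and up to 0.93 for CSNK1A1. The median was −0.36 over 4 measured genes of 5. Of the keratins, KRT19 had −0.79, KRT8 −0.65, KRT18 −0.44 and KRT20 −0.39, with a median of −0.55. The signals of KRT8 were 11431, 10780, 8635 and 7268.

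**Figure D5:**
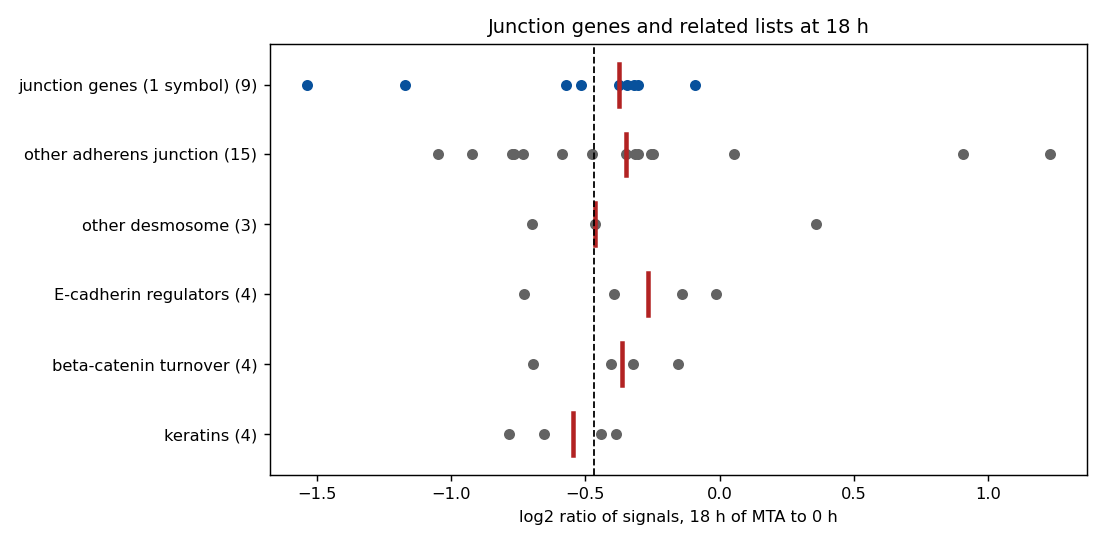
Points are the log2 ratios (18 h of MTA against 0 h) of measured genes in 6 lists, whose numbers stand in brackets. Red bars give list medians, and the dashed line is drawn at −0.47, the median over the array. List medians run from −0.55 for keratins to −0.27 for regulators of E‐cadherin, and the point of NECTIN3, at 1.23, rests on a dim 0 h signal of 26.9.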

How the data were processed

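Total RNA was labelled with the 3′ IVT Express kit and hybridised to Affymetrix U133 Plus 2.0 arrays. Signal intensities (MAS5, linear) were computed with Affymetrix Expression Console and deposited by the authors. Its version and the scaling target were not stated in the sources. After 62 control probe sets had been removed, the brightest by mean log2 signal were kept, in the number that the study counted as detected. No pseudocount was added before log2 ratios were formed. Probe sets were named through GEO's platform annotation, with symbols updated by the RefSeq table of GRCh38.p14: 41091 had 1 symbol, 1801 several and 11721 none. A gene was represented by its brightest kept probe set with 1 symbol, which other probe sets can differ from. The genes named were all 10 junction genes and the 5 genes nearest to CDH1. From each list up to 4 genes were also named, those with the largest absolute log2 ratio at 18 h. AJUBA, CDH17, CDX2, GPA33, NECTIN1, KRT8 and genes too dim to be kept were named after their values had been seen. The junction genes and the lists were chosen with earlier results of these data known. Alternatives were 5 scalings (median‐centred ratios, quantile normalization, division by array medians, poly‐A and hybridization controls), a pseudocount of 2.90, no filter, a filter of 10000 probe sets, averaging the probe sets of a gene and a threshold of 1.5. CTNND1 was added to the counts after the values had been seen. No p‐value is given. The calculation was tested on simulated data. Python 3.11.15, NumPy 2.4.6, pandas 2.3.3 and matplotlib 3.10.9 were used.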

Additional observations from a re-analysis of the deposited data

How the results depend on the processing

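No paired analysis was possible because each time has 1 array, and for the same reason no array could be left out. With the ratios centred on their median, 0 of the 9 junction genes were below −1 at 12 h and 1 (PKP3) at 18 h, 0 of 18 probe sets were below −1.5 at 18 h, and of the other adherens junction genes 0 were lower and 2 higher. Quantile normalization gave the same counts, 0, 1, 0, 0 and 2, and a median of 0.28 for the regulators of E‐cadherin. Scaled to the poly‐A controls, 1 gene was below −1 at 18 h, 0 probe sets were below −1.5, and 0 of the other adherens junction genes were lower and 2 higher. Scaled to the hybridization controls, 0 genes were below −1 at 12 h and 0 probe sets below −1.5 at 18 h. Divided by the array medians, 1 gene (PKP3) was below −1 at 6 h. Without a filter, 2 of 19 other adherens junction genes were higher, the other desmosome genes had a median of 0.20 with 2 higher, and the regulators had 1 lower and 2 higher. With the stricter filter PKP3 was not kept, 1 of 8 junction genes (DSC2) was below −1 at 18 h, 0 of 12 probe sets were below −1.5, and 0 of 12 other adherens junction genes were higher. With the probe sets of a gene averaged, 0 genes were below −1 at 12 h and 1 (PKP3) at 18 h. At a threshold of 1.5, 0 genes were lower at 12 h, 1 at 18 h, and 0 of the other adherens junction genes were lower and 0 higher. At a threshold of 1, 1 of the 18 probe sets was lower at 12 h and 3 at 18 h. The causes were not tested, except that fewer or more genes were measured under other filters. The pseudocount and the addition of CTNND1 kept every count within 1.5 times its value in the report. No detection calls were at hand, so a signal near 34.0 cannot be told from background.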
